A study of Nothobranchius furzeri with 15 samples.

Results

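Muscle was compared between 14 weeks and 3.5 weeks of age, the oldest and the youngest age sampled in the turquoise killifish Nothobranchius furzeri, a short-lived annual fish (strain GRZ-AD). The comparison rests on 4 of the 15 libraries of the series, chosen by their labelled tissue and age: libraries 1 and 2 of 14 weeks and libraries 1 and 3 of 3.5 weeks. Muscle at 8.5 weeks (2 libraries) entered the statistical fits to help estimate the spread and is shown as the age in between, and brain (9 libraries over the same 3 ages) served for 1 test of tissue differences. All fish carry the same labelled strain, with no treatment or genotype difference, and the labels name neither the muscle nor the sex, nor do they say whether a library came from 1 animal or from pooled animals. P-values therefore measure the spread between these libraries, which may be technical.

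Circular RNAs (circRNAs) form when the downstream end of an exon is spliced back to an upstream exon start, which closes the RNA into a loop without free ends. Because exonucleases need a free end, many loops outlast the linear mRNA of the same gene, and loops are known to build up in nervous tissue of ageing flies and mice. Skeletal muscle is made of long-lived fibres whose largest genes, such as titin, hold many exons and are known to give circRNAs in mammalian heart and muscle. Each circRNA here was measured by circular junction reads, and the linear reads counted by the authors at the same position measure its host gene. CircRNAs carry the symbol of their host, numbered in table order where a host has several, and coordinates are those of the authors' table, whose genome build is not given in the sources used here.

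The 4 libraries held 1343 and 1645 circular reads at 3.5 weeks against 1830 and 1947 at 14 weeks, beside 96191, 116813, 97187 and 76515 linear reads in the same order. Muscle identity was checked on the 6 skeletal muscle markers that are hosts in the table (atp2a1, mybpc2b, neb, ryr1b, ttn.1 and ttn.2), which took 30.5% to 36.2% of the host linear reads of the 6 muscle libraries. Of the neuron markers, elavl4 had 0 or 1 linear read per muscle library, snap25 had 4 to 9 and syt1 had 1 to 16. At 1 position in the host LOC107389481 on chromosome 9, all 6 muscle libraries held between 7824 and 7897 linear reads, an SD of 25.8 where counting error alone gives 88.7, and this was the highest linear count of each. In bulk tissue, fewer cells of a type and less RNA per cell cannot be told apart.

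A larger share of the reads was circular in old than in young muscle. The share was 1.38% (95% exact binomial interval 1.305 to 1.452%) and 1.39% (1.32 to 1.46%) in the libraries of 3.5 weeks, and 1.85% (1.77 to 1.93%) and 2.48% (2.37 to 2.59%) in those of 14 weeks. These intervals cover counting error only. Both old libraries lay above both young ones, by 0.782 percentage points between the means of 2.16% ± 0.448 (SD, n = 2) and 1.38% ± 0.00829 (SD, n = 2). A two-sided exact permutation test gave p = 0.333, the smallest p that 2 against 2 libraries allow. Without library 2 of 14 weeks the difference was 0.465 points. The old libraries did not hold the highest shares of the tissue, because those of 8.5 weeks stood at 3.38% and 3.18%.

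**Figure D1:**
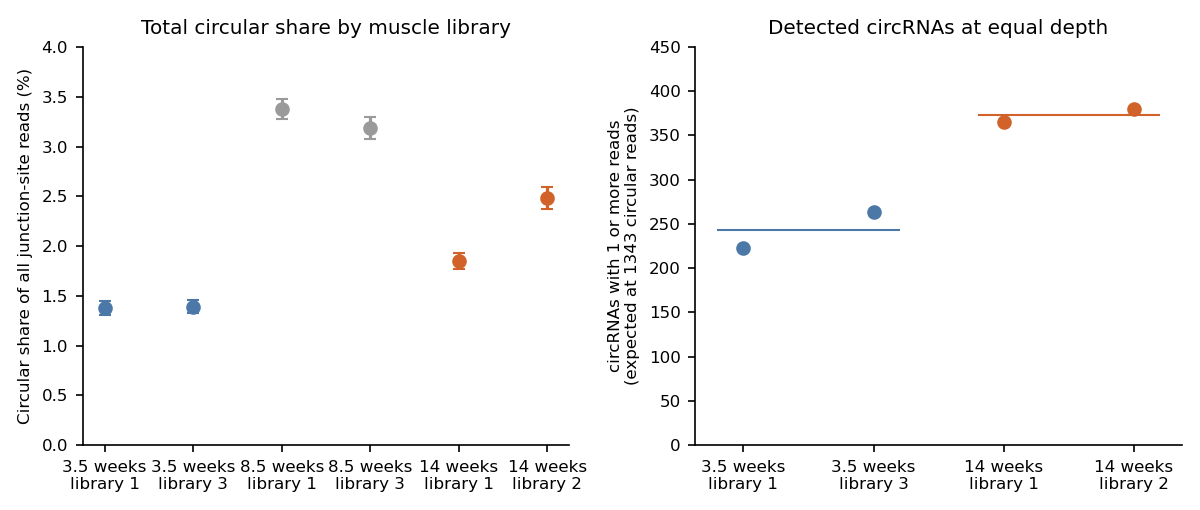
Left, circular reads as a percentage of circular plus linear reads in each of the 6 muscle libraries, with 95% exact binomial intervals. Right, circRNAs with at least 1 read expected at an equal depth of 1343 circular reads in the 4 libraries compared, with lines at the age means: 223 and 263.6 at 3.5 weeks against 365.2 and 380.0 at 14 weeks.

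The circular reads of old muscle were also spread over more circRNAs. At an equal depth of 1343 circular reads, 223 and 263.6 circRNAs were expected in the young libraries and 365.2 and 380.0 in the old ones, a difference of 129.3 (exact permutation p = 0.333, again the smallest possible). Much of this difference lay in circRNAs with a single read, since counting only those with at least 2 reads left a difference of 21.9. Without thinning, 30 and 38 circRNAs were seen exactly once in the young libraries and 110 and 159 in the old. The 10 leading circRNAs of each library took 33.6% and 31.3% of the circular reads in young muscle and 25.6% and 25.8% in old muscle.

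Of the 1810 circRNAs in the table, 716 were read in at least 1 of the 4 libraries, and 69 were read in all 4. Both old libraries and neither young one held 82 circRNAs, with 386 reads in all. The opposite pattern, both young libraries and neither old one, held for 11 circRNAs with 79 reads. A further 242 circRNAs were read in only 1 old library and 105 in only 1 young library, so circRNAs seen in a single library of an age outnumbered those repeated in both. The most read of the 82 was the circRNA of rnf19a, a ubiquitin ligase, with 9 and 7 reads at 14 weeks, 4 and 5 at 8.5 weeks and none at 3.5 weeks. Others with at least 8 reads, picked by that count after the values were seen, included those from atp6v1h, LOC107377376, tapt1, tbck, cap2, LOC107386401, pacs2, kiaa1109, atp2a1 and cdk5rap2.

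The most read circRNAs of the 4 libraries included those of filamin C and titin. The circRNA flnc.2, from filamin C, an actin crosslinker of the Z-disc, had 147 and 221 circular reads at 3.5 weeks against 141 and 186 at 14 weeks, the most of any circRNA over the 4 libraries. It spans chromosome 2 from 1030947 to 1031338, and circular reads made up 44.1% to 50.3% of the reads at its position in the 4 libraries. Its ends are labelled intergenic-exon, so its start lies outside annotated exons. Its abundance was 2032 ± 179 and 1837 ± 667 CPM (mean ± SD, n = 2), where CPM are circular reads per 1e6 linear reads after TMM scaling, and the fitted log2 change was -0.15 (SE 0.36). The titin circRNA ttn.1, on chromosome 10 from 31623386 to 31628418, had 70 and 47 reads at 3.5 weeks against 58 and 74 at 14 weeks. The circRNA of eif3l, a translation initiation factor subunit, had 45 and 62 reads and then 53 and 25, lower in both old libraries once scaled, and 61.9% of the reads at its position over the 4 libraries were circular. The remaining leaders by reads were filip1l.2, nsun4.1, ryr1b, mylk4a.1, cap2.2, cox4i2.2 and ubr3. The ends of eif3l, cox4i2.2 and ubr3 are labelled intergenic-exon as well.

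A test of circular abundance for each circRNA called 1 of 292 circRNAs higher at 14 weeks (0.342%) and none lower (0%), at a Benjamini-Hochberg adjusted p under 0.05 from the quasi-likelihood test of edgeR. At an unadjusted p under 0.05, 21 were higher (7.19%) and 5 lower (1.71%), and DESeq2 called 2 higher and none lower. Library sizes came from the linear reads, so a joint rise of the circRNAs was not scaled away. The old libraries both lay above the young ones for 82 circRNAs (28.1% of those tested) and both below for 30 (10.3%). Of these, 43 and 10 were among the 139 circRNAs with under 10 reads in the 4 libraries, so many rest on few reads. The median fitted log2 change was 0.74. A group without reads, as for 88 of the circRNAs, makes a fitted change depend on the prior count. With such changes set to the bound given by 3 reads over the group, the median over 243 circRNAs was 0.38, with 147 above 0 and 96 below. The fitted median rested on the selection of circRNAs and on single libraries: it was 0.15 over the 153 circRNAs with 10 or more reads in the 4 libraries alone, 0.11 without library 2 of 14 weeks, 2.504 without library 3 of 3.5 weeks, and 1.06 with linear totals in place of TMM.

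The circRNA called higher was cap2.2, from the gene of cyclase-associated protein 2, which regulates actin filaments and is found at the sarcomere in mammals. It lies on the minus strand of chromosome 12 from 15085283 to 15089623, with both ends in annotated exons. It had 4 and 1 circular reads at 3.5 weeks, 72 and 57 at 8.5 weeks and 40 and 40 at 14 weeks. Both old libraries stood well above both young ones, and below both libraries of 8.5 weeks. In CPM it went from 30.8 ± 29.7 to 442 ± 77.1 (SD, n = 2), a log2 change of 3.89 (SE 0.71, adjusted p = 0.0264). The linear reads of its host did not follow: cap2 had 523 and 556 at 3.5 weeks and 664 and 413 at 14 weeks, a log2 change of -0.06 (SE 0.20). Accordingly, the circular share at the position was 1.34% and 0.333% in young muscle and 9.98% and 14.7% in old muscle. The second cap2 circRNA shares the end coordinate 15089623, starts at 15085191, and had 0 and 0 reads at 3.5 weeks against 3 and 5 at 14 weeks. The call for cap2.2 was lost without any single library of 8.5 or 14 weeks: its adjusted p was 0.236 and 0.652 without library 1 or 3 of 8.5 weeks, and 0.0839 and 0.581 without library 1 or 2 of 14 weeks, while the log2 change stayed between 3.70 and 4.06. Without library 1 or 3 of 3.5 weeks the call held, with a log2 change of 5.34 or 3.06. The call was also lost with the filter over the 4 libraries and in a fit of these 4 alone. There the smallest adjusted p of any circRNA was 0.138 and 0.685.

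The other circRNAs with the smallest p upward did not pass the adjusted threshold. That of gulp1, an adaptor for the engulfment of apoptotic cells, had 3 and 1 reads at 3.5 weeks against 12 and 35 at 14 weeks (log2 change 3.50, SE 0.86, adjusted p = 0.183). The 84 and 54 reads at 8.5 weeks were again the highest. Its call depended on the setting, with an adjusted p of 0.00169 without library 1 of 3.5 weeks. The circRNA atp2a1.3, from the fast muscle sarcoplasmic reticulum calcium pump, had 2 and 1 reads in young muscle and 13 and 15 in old muscle, 9.12-fold more by library size (95% counting interval 2.82 to 46.9). LOC107384050 had 0 and 3 reads and then 12 and 19. The circRNA mtmr3.2, from a phosphoinositide phosphatase, had 0 and 1 and then 11 and 8. For rnf19a the old libraries were at least 5.21-fold higher than a young level of 3 reads.

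**Figure D2:**
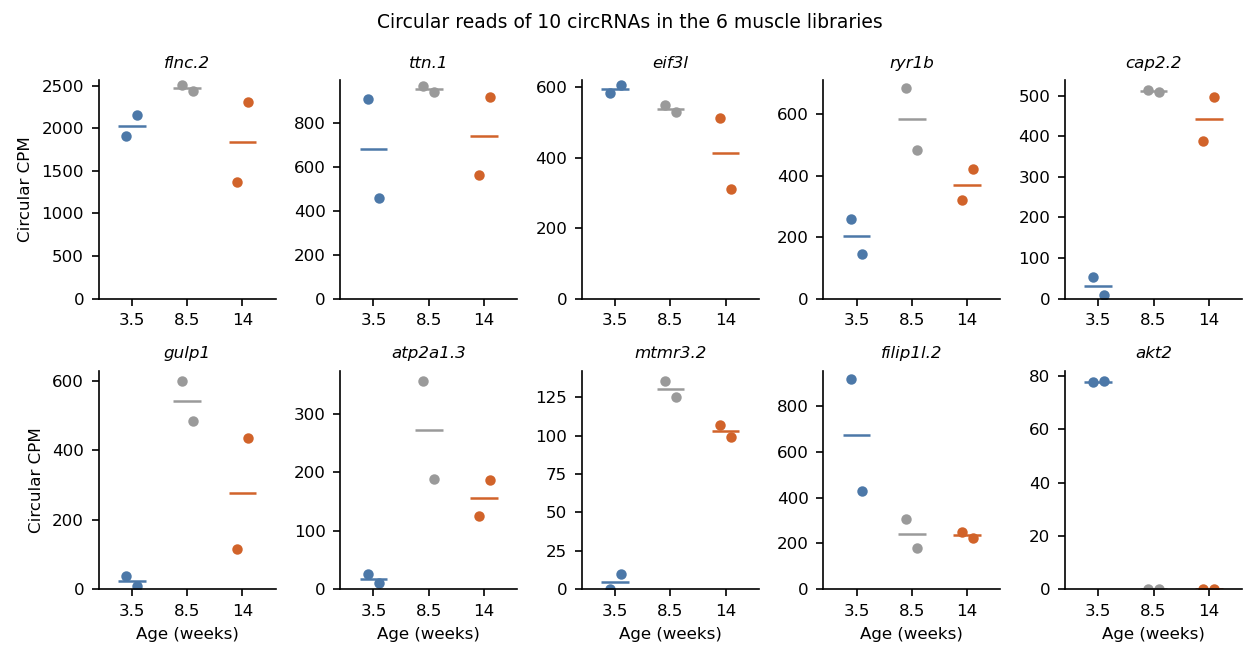
Circular CPM (circular reads scaled to TMM-scaled linear reads) of 10 circRNAs in the 6 muscle libraries by age in weeks, with a point per library and a line at each mean; axes start at 0. cap2.2, gulp1, atp2a1.3 and mtmr3.2 were near 0 at 3.5 weeks and read at both later ages, flnc.2 and ttn.1 overlapped between 3.5 and 14 weeks and were highest at 8.5 weeks, and akt2 had 0 reads after 3.5 weeks.

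Downward, no circRNA passed. The circRNA filip1l.2, from a filamin-interacting protein, had the smallest p, with 71 and 44 reads at 3.5 weeks against 26 and 18 at 14 weeks (log2 change -1.49, SE 0.54, adjusted p = 0.479). It lies on chromosome 1 from 22596894 to 22598404, and its share at the position was 29.6% ± 10.7 and 26.3% ± 2.54 (SD, n = 2), so circular and linear reads were lower together. Without library 3 of 3.5 weeks its adjusted p was 0.0334, and in the 14 other alternative settings it was not called. The circRNA of akt2, which acts downstream of the insulin receptor, had 6 and 8 reads at 3.5 weeks and none in the 4 later muscle libraries, at least 4.78-fold lower at 14 weeks. Its linear reads were 15 and 34 in young muscle and 31 and 21 in old muscle. The circRNA of hnrnph1, a splicing factor, showed the same pattern with 6 and 6 reads and then none, and that of fgfr1b, a fibroblast growth factor receptor, had 2 and 11 at 3.5 weeks, 3 and 0 at 8.5 weeks and none at 14 weeks. For anapc2, a subunit of the anaphase-promoting complex, all 12 young reads came from 1 of the libraries.

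The test of the circular share, the log2 change of circular against linear reads at the same position, called none of the 292 circRNAs in either direction (0% each way). At an unadjusted p under 0.05, 26 were higher (8.9%) and 6 lower (2.05%). The smallest adjusted p was 0.139, for cap2.2, with a log2 change of 4.01 (SE 1.14). A beta-binomial likelihood ratio test called 12 higher and 6 lower. That test estimates the spread of each circRNA on its own from the 6 muscle libraries, and its large-sample p-values can be too small with so few. Among higher shares in the edgeR test, the next by p after cap2.2 were myom2b, an M-band protein of the sarcomere, rnf19a, ak1, the cytosolic adenylate kinase, and atp2a1.3. The circRNA of myom2b had no read at 3.5 weeks, and that of ak1 had 0 reads in the young libraries and 0 and 4 in the old ones. For nfix, a transcription factor of muscle development, the share was 14.7% and 8.97% in young muscle and 0% and 1.96% in old muscle, with an adjusted p of 0.411. The remaining circRNAs with a lower share and the smallest p were LOC107389481, akt2, anapc2 and zc3h12d. The first of them lies at the position with nearly constant linear counts.

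The circular share ranged widely among circRNAs. Among those with at least 20 circular and linear reads together over the 4 libraries, 72.9% of the 59 reads at the circRNA of LOC107387794 were circular, followed by LOC107386183 at 65.2%, eif3l at 61.9%, zc3h12d at 59.1% and cox19 at 56.9%. For nsun4.1, from a methyltransferase of mitochondrial ribosomes, the share was 56.7%, with 8 and 31 circular reads at 3.5 weeks against 30 and 33 at 14 weeks. For ubr3, a ubiquitin ligase, the share was 53.7% ± 2.22 at 3.5 weeks and 57.9% ± 4.77 at 14 weeks (SD, n = 2). Lower down, ttn.1 had a share of 1.29% ± 0.581 and 2.18% ± 0.754. The remaining circRNAs among the 10 highest shares at that minimum were gulp1, klhl5 and jarid2.

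CircRNAs were also grouped by span and by annotation. The 146 circRNAs whose genomic span exceeded the median of 3977.5 bp had a median log2 change of 0.95, with 49 apart upward and 10 downward. The 146 shorter ones had 0.50, with 33 upward and 20 downward. Over all 292 tested the median was 0.74, with 82 apart upward (28.1%) and 30 downward (10.3%). With both ends in annotated exons the median was 0.88 (227 circRNAs), with 1 such end it was 0.04 (43 circRNAs), and with none it was 0.52 (22 circRNAs). These are descriptions without a test, and the median also varied with read number, with 2.40 in circRNAs with under 10 reads in the 4 libraries, 0.03 with 10 to 29, 0.92 with 30 to 99 and -0.01 in the 6 with 100 or more.

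Some hosts gave several circRNAs. Over the 4 libraries, 4 circRNAs each were read from flnc, nisch, scn4aa and ttn.2. In flnc, whose 4 circRNAs had 147 and 227 reads at 3.5 weeks against 148 and 197 at 14 weeks, the next after flnc.2 was flnc.1, with 0 and 6 and then 3 and 8. In nisch, which encodes nischarin, the sum was 0 and 2 reads in young muscle and 11 and 8 in old muscle, and nisch.3 had 14 of those 19 old reads. In scn4aa, the muscle sodium channel, the sum went the other way, from 12 and 15 to 7 and 7 reads. In ttn.2 it was 5 and 4 and then 4 and 5.

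Linear reads summed over the positions of each host changed in more genes. Of 938 hosts tested in edgeR with Benjamini-Hochberg adjustment, 11 were higher at 14 weeks (1.17%) and 17 were lower (1.81%), and at an unadjusted p under 0.05 these were 76 (8.1%) and 61 (6.5%). The libraries of the ages did not overlap for 228 hosts upward (24.3%) and 179 downward (19.1%). The median log2 change was 0.07. The split turned with the scaling: library totals without TMM gave 28 higher and 7 lower around a median of 0.38, and library sizes without the 10 positions of most linear reads gave 18 higher and 12 lower around a median of 0.24. Without library 2 of 14 weeks 5 were higher and 14 lower, and without library 1 of 3.5 weeks 8 were higher and 11 lower. The hosts rps15, hspa8, ass1, naca, pnkp, LOC107380889 and filip1l, all lower, were called in each of the 16 alternative settings.

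**Figure D3:**
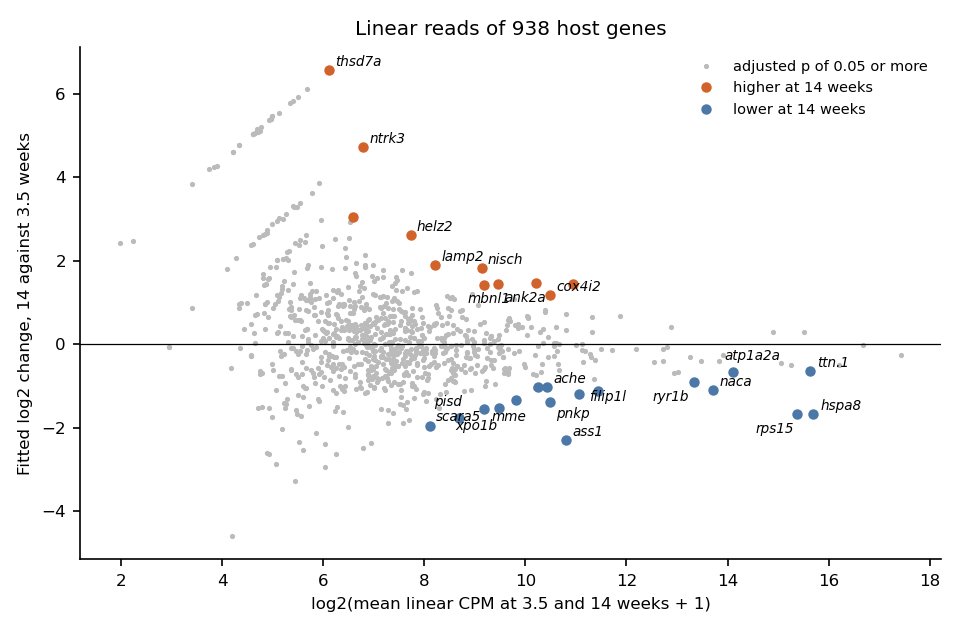
Fitted log2 change of the linear reads of each host gene (14 against 3.5 weeks) against its mean level, log2 of linear CPM + 1. Orange points are the 11 hosts higher and blue points the 17 hosts lower at an adjusted p under 0.05; hosts with a gene symbol are written beside their points, and rps15 and hspa8 are the most abundant of the steep decreases.

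The smallest p among hosts belonged to rps15 and hspa8. The linear reads of rps15, a protein of the small ribosomal subunit, were 4467 and 5248 at 3.5 weeks, 3435 and 2609 at 8.5 weeks and 2151 and 1038 at 14 weeks. Both old libraries lay below every earlier one. Its level fell from 64787 ± 4694 to 20268 ± 6981 linear CPM (SD, n = 2), a log2 change of -1.68 (SE 0.18, adjusted p = 1.05e-09). The linear reads of hspa8, the constitutive heat shock cognate chaperone, were 5674 and 6251 in young muscle and 2766 and 1201 in old muscle, a log2 change of -1.67 (SE 0.19, adjusted p = 1.34e-09). The related host hspa8b, which may share reads with it, had 7 and 16 and then 10 and 17. The subunit naca, of a complex that binds nascent chains at the ribosome, had 1208 and 1556 and then 826 and 498 (log2 change -1.10, SE 0.19). Each of these 3 hosts is represented by a single position, at which no circular read was found in the 4 libraries.

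The steepest fall among called hosts was in ass1, argininosuccinate synthase of arginine synthesis. It had 227 and 212 linear reads at 3.5 weeks, 119 and 108 at 8.5 weeks and 63 and 31 at 14 weeks. The decline ran through all 3 ages without overlap, from 2972 ± 691 to 598 ± 198 CPM (SD, n = 2), a log2 change of -2.29 (SE 0.29, adjusted p = 6.57e-08). The DNA end-repair enzyme pnkp had 144 and 168 and then 81 and 43 linear reads (log2 change -1.38, SE 0.29), and filip1l had 191 and 257 and then 121 and 78 (log2 change -1.20, SE 0.26). Lower as well, with calls that some settings lost, were mme (neprilysin, a membrane peptidase), xpo1b (a nuclear export receptor), pisd (phosphatidylserine decarboxylase of mitochondria), scara5 (a ferritin receptor), LOC107389476 and LOC107384395, with log2 changes from -1.02 to -1.95. The mme and xpo1b calls were lost without library 1 of 3.5 weeks or library 1 of 14 weeks, and that of pisd without library 3 of 3.5 weeks or library 1 of 14 weeks. The call of scara5 was lost without library 1 of 3.5 weeks or either library of 14 weeks, and that of LOC107389476 without library 1 of 3.5 weeks or library 2 of 14 weeks. LOC107384395 lost it without either library of 3.5 weeks, library 1 of 8.5 weeks or library 2 of 14 weeks. Over these losses the adjusted p ran from 0.0532 to 0.37.

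**Figure D4:**
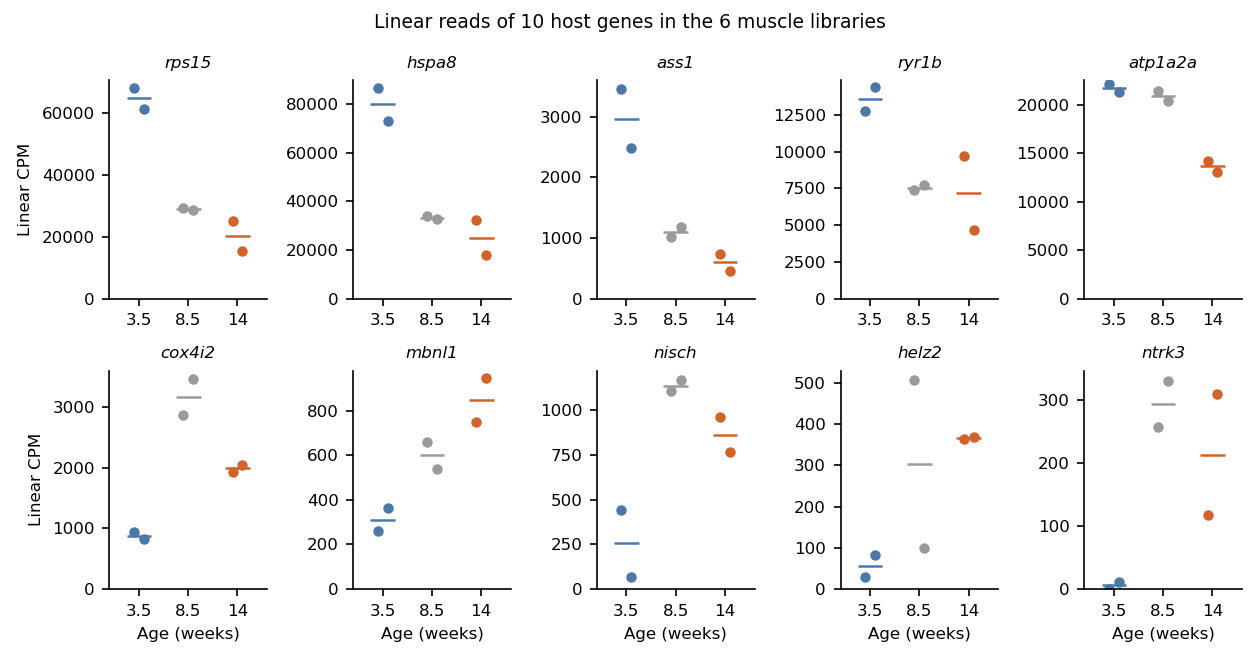
Linear CPM (TMM-scaled linear reads) of 10 host genes in the 6 muscle libraries by age in weeks, with a point per library and a line at each mean; axes start at 0. In rps15, hspa8, ass1 and atp1a2a both libraries of 14 weeks lie below both of 3.5 weeks, and in cox4i2, mbnl1, nisch, helz2 and ntrk3 they lie above.

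Of the 11 tested hosts of excitation-contraction coupling and calcium handling, 3 fell and none rose, where 1.81% of all hosts fell and 1.17% rose. Their median log2 change was -0.40 beside 0.07 for all hosts. The ryanodine receptor ryr1b, through which the sarcoplasmic reticulum releases calcium, had 839 and 1230 linear reads at 3.5 weeks against 830 and 316 at 14 weeks (log2 change -0.91, SE 0.22, adjusted p = 0.00708). The sodium pump subunit atp1a2a had 1450 and 1820 and then 1216 and 883 (log2 change -0.67, SE 0.18, adjusted p = 0.0156). Acetylcholinesterase, ache, which clears transmitter at the neuromuscular junction, had 93 and 194 and then 64 and 73 (log2 change -1.03, SE 0.29, adjusted p = 0.0344). In the same list the calcium pump atp2a1 had 3242 and 2941 and then 4187 and 3625 linear reads (log2 change 0.29, adjusted p = 0.46), and scn4aa had 860 and 1101 and then 818 and 683 (log2 change -0.40, adjusted p = 0.31). For ryr1b the log2 change was -1.52 when library 1 of 14 weeks was left out, but only -0.48 when library 2 was left out instead. Its call was lost without library 3 of 3.5 weeks (adjusted p = 0.0657) or library 2 of 14 weeks (0.192), the atp1a2a call without library 1 or 3 of 3.5 weeks (0.189 and 0.118), and the ache call without library 3 of 3.5 weeks (0.335), library 1 of 8.5 weeks (0.059) or library 1 of 14 weeks (0.334). All 3 were lost with library totals in place of TMM.

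Of the 13 sarcomere hosts tested, 1 fell and none rose (1.81% and 1.17% over all hosts), with a median log2 change of -0.11. That host was ttn.1, 1 of 2 hosts named titin, with 4055 and 5319 linear reads at 3.5 weeks against 3462 and 2653 at 14 weeks (log2 change -0.64, SE 0.16, adjusted p = 0.0118). Leaving out library 1 or 3 of 3.5 weeks ended its call (adjusted p = 0.154 and 0.135), as did library totals. The second, ttn.2, had 12717 and 16393 and then 12814 and 11789 (log2 change -0.25, adjusted p = 0.46). Nebulin, neb, had 2912 and 3967 and then 2665 and 2246 (log2 change -0.50, adjusted p = 0.11), and myom2b had a log2 change of -0.45 (adjusted p = 0.18). Reads of ttn.1 and ttn.2 could be exchanged if the hosts hold similar sequence.

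Among the hosts that rose, cox4i2, an isoform of a cytochrome c oxidase subunit, had the most reads of those with a name. It had 62 and 70 linear reads at 3.5 weeks, 335 and 315 at 8.5 weeks and 165 and 139 at 14 weeks, the highest at the middle age. Its level rose from 883 ± 88.7 to 1993 ± 84.6 CPM (SD, n = 2), a log2 change of 1.18 (SE 0.26, adjusted p = 0.00379; 0.0774 without library 3 of 3.5 weeks). It was the only 1 of 14 tested hosts of mitochondria and high-energy phosphate that was called (1.17% of all hosts rose and 1.81% fell), and the median of that list was 0.32. Other members, ak1 and idh2, had log2 changes of -0.50 and -0.26 with adjusted p of 0.0754 and 0.597.

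The splicing regulator mbnl1, whose fly homologue makes a circRNA from its own exon, had 17 and 31 linear reads at 3.5 weeks against 64 and 64 at 14 weeks (log2 change 1.42, SE 0.38, adjusted p = 0.0196). It was the 1 called host of 10 tested splicing regulators and RNA-binding proteins, beside 1.17% of all hosts called higher. The lysosomal membrane protein lamp2 had 6 and 13 and then 37 and 34 (log2 change 1.90, SE 0.53). The helicase helz2 had 2 and 7 and then 31 and 25 (log2 change 2.61, SE 0.69), and was the 1 called host of 3 tested in the interferon list. The membrane adaptor ank2a had 34 and 21 and then 75 and 80 (log2 change 1.45, SE 0.35), and nisch had 29 and 6 and then 82 and 52 (log2 change 1.83, SE 0.42). Each of these calls was lost without at least 1 library: mbnl1 and helz2 without library 1 of 3.5 weeks or library 2 of 14 weeks (adjusted p = 0.16 and 0.217 for mbnl1, 0.0901 and 0.06 for helz2), lamp2 without those or library 1 of 14 weeks (0.152, 0.205 and 0.0765), ank2a without library 3 of 3.5 weeks or library 2 of 14 weeks (0.19 and 0.0903), and nisch without library 3 of 3.5 weeks (0.217). The log2 change of nisch was 0.97 without that library, 3.60 without library 1 of 3.5 weeks, and its call was also lost at its position with the most linear reads (0.282). The log2 change of ank2a was 2.05 if library 1 of 3.5 weeks was dropped, but 0.98 if library 3 was. For helz2 it was 2.14 on dropping library 1 and 3.52 on dropping library 3.

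The lowest hosts that rose were nearly absent from young muscle. The neurotrophin receptor ntrk3 had 0 and 1 linear reads at 3.5 weeks, 30 and 30 at 8.5 weeks and 10 and 21 at 14 weeks, a ratio of 30.6 by library size (95% counting interval 5.10 to 1246). The host thsd7a, a membrane protein with thrombospondin repeats, had none at 3.5 weeks and 12 and 9 at 14 weeks, at least 6.90-fold higher than 3 reads over the young libraries. LOC107384050 had 0 and 3 and then 13 and 13, a ratio of 8.55 (2.62 to 44.1). Beside them, the neuron markers had 4 and 6 reads (snap25), 1 and 6 (syt1) and 0 and 0 (elavl4) in young muscle, and 7 and 6, 1 and 12, and 1 and 1 in old muscle. Their part in these increases was not tested. LOC107381139 and LOC107394856 completed the 11, with log2 changes of 1.45 and 1.46. The first was 0.70 without library 2 of 14 weeks, and the second was 0.68 (adjusted p = 0.474) from its position with the most linear reads alone, a summary that also ended the calls of ntrk3 and thsd7a. The ntrk3 and LOC107381139 calls were lost without library 2 of 14 weeks (adjusted p = 0.136 and 0.217), that of thsd7a without either library of 14 weeks (0.0765 and 0.0791) or library 3 of 3.5 weeks (0.0643), and that of LOC107384050 without any single library except library 3 of 3.5 weeks (0.0566 to 0.224).

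Circular and host changes shared their sign more often than not, though many differed. Of the 271 circRNAs whose host was tested too, both log2 changes were above 0 for 110 and both below 0 for 63, while the circRNA was above and the host below for 67 and the reverse held for 28. With at least 30 circular reads these counts were 13, 9, 10 and 0 of 32. All 8 tested circRNAs of hosts that rose had a log2 change above 0, among them cox4i2.2 with 14 and 6 reads at 3.5 weeks against 41 and 24 at 14 weeks (log2 change 1.57, SE 0.62, adjusted p = 0.479). Of the 10 tested circRNAs of hosts that fell, 8 also had a log2 change above 0, none of them called. Both counts are to be read against 187 of all 292 circRNAs tested above 0. Some of these signs rest on few reads in young and old muscle: 0 and 2 for nisch.2, 4 and 6 for mbnl1, 3 and 6 for LOC107381139, and 0 and 4 for LOC107380889. Among the 8 of hosts that fell, ttn.1 had 0.12 (SE 0.45), atp1a2a.2 had 0.17 (SE 0.73) and ass1 had 0.38 (SE 1.60). The largest against its SE was that of mme, 1.87 (SE 0.74). The ryr1b circRNA, on chromosome 7 from 41676320 to 41677029, had 20 and 15 and then 33 and 34 reads while its host fell, and its share was 2.33% and 1.21% in young muscle and 3.82% and 9.71% in old muscle (adjusted p = 0.411 for the share). The mme circRNA had 4 and 3 and then 14 and 13 reads, and that of ass1 had 6 reads in young and 7 in old muscle. The exceptions were filip1l.2 and atp1a2a.1, the latter with 14 reads in young and 10 in old muscle.

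**Figure D5:**
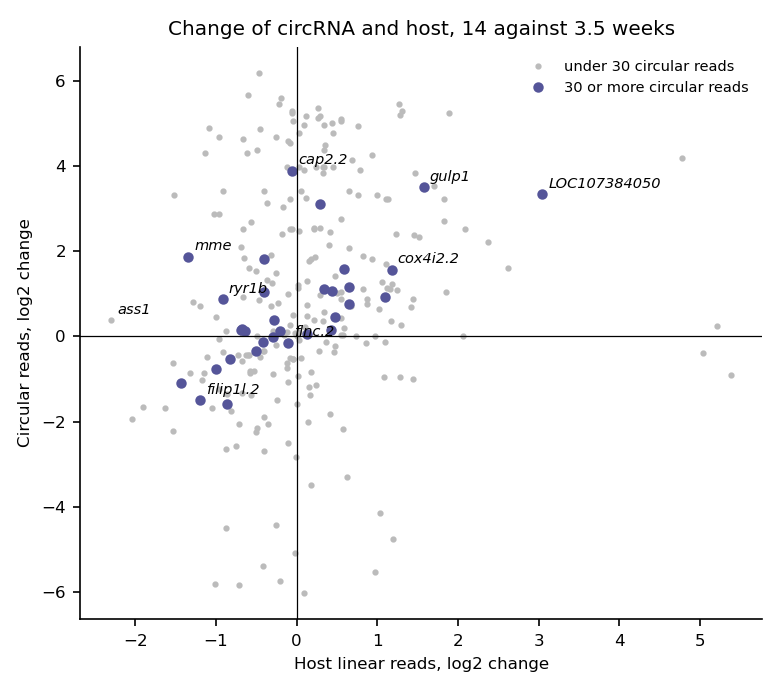
Fitted log2 change of circular reads against that of the linear reads of the host (14 against 3.5 weeks) for 271 circRNAs, dark where the circRNA had 30 or more circular reads in the 4 libraries. Points in the upper left are circRNAs above 0 with hosts below 0 (67 circRNAs, mme and ryr1b among them), and the lower right holds 28, none of them dark.

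Described by gene list, circular reads of the tested set followed its upward median with 1 exception in direction among lists of at least 5 circRNAs. Of all 292 circRNAs tested, 187 had a fitted log2 change above 0, 0.342% were called higher and 0% lower. Of these 292, 139 had under 10 reads in the 4 libraries compared and passed the filter only with reads of the middle age. Their median log2 change was 2.40, with 100 above 0. With the filter over the 4 libraries, 153 circRNAs had a median of 0.15, with 87 above 0 and 66 below. The list values below rest on the 292, so their directions depend on that selection. The 8 tested circRNAs of mitochondria and high-energy phosphate had 7 changes above 0, with a median log2 change of 1.21 with bounds, beside 0.38 for all circRNAs, and none was called. The 10 of calcium handling had 7 above 0 (median with bounds 0.88, none called), the 15 of the sarcomere had 10 above 0 (0.70, 1 called, cap2.2), and the 11 of cytoskeleton and motors had 7 above 0 (0.15, none called). The 9 of ubiquitin, proteasome and autophagy had 7 above 0 (1.18), the 6 of splicing regulators had 4 (1.12), the 5 of extracellular matrix had 4 (1.03), and the 5 from hosts known to give mammalian circRNAs had 3 (0.24), with none called in any of these. The counts above 0 cover all tested members, but a median with bounds covers only circRNAs with a value. These were 13 for the sarcomere, 9 for calcium handling, 9 for cytoskeleton and motors and 6 for ubiquitin, proteasome and autophagy. They were 5 for splicing regulators, 4 for hosts known in mammals and 3 for chromatin regulators. Growth and nutrient signalling stood on the other side of 0, with 2 of 6 above 0 and a median of -1.21, none called. Its members akt2 and fgfr1b had no circular read at 14 weeks, ghrb.2, from a growth hormone receptor, had 6 and 3 and then 5 and 1, and ghrb.1 had 0 and 6 and then 2 and 4. In lists with fewer circRNAs, the median with bounds was 0.02 for chromatin regulators (4 circRNAs), -0.06 for myogenic regulators (4), -0.07 for small GTPase regulators (3), 0.11 for translation and ribosome (2), and -0.34 and -1.01 for the single circRNAs of chaperones and of interferon and inflammation, with none called.

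The linear reads of the remaining lists had few calls, to be read against 1.17% of all hosts higher and 1.81% lower. In cytoskeleton and motors, 1 host rose (ank2a) and 1 fell (filip1l) of 17 tested, and among 16 hosts known to give mammalian circRNAs, 1 rose (mbnl1) and 2 fell (ttn.1 and xpo1b). Translation and ribosome had 1 of 6 lower (rps15) and chaperones 1 of 5 (hspa8), and the other members of both lists had adjusted p above 0.05. No host was called among 22 of ubiquitin, proteasome and autophagy, 22 of small GTPase regulators, 19 of chromatin regulators, 11 of growth signalling, 11 of extracellular matrix, 6 of myogenic regulators and 2 of glycolysis. Periostin, postn, a matrix protein and fibroblast marker, had 715 and 731 linear reads in young muscle and 619 and 319 in old muscle (log2 change -0.70, adjusted p = 0.0544). The endothelial marker cdh5 had 19 and 4 and then 20 and 20 (adjusted p = 0.73).

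Whether these changes differed from those of brain was tested with an interaction term over all 15 libraries. For circular reads, none of 896 circRNAs was called in either direction (0%), with 31 higher and 18 lower at an unadjusted p under 0.05 (3.46% and 2.01%), and DESeq2 called none. The smallest adjusted p was 0.0863, for mlip, from the muscle lamin-interacting protein, with 1 and 1 reads in young muscle and 9 and 16 in old muscle. The next by p were gulp1, klhl5, srpk3 and cdk19. For host linear reads, 26 of 1242 hosts had a higher change in muscle than in brain (2.09%) and 3 a lower one (0.242%). A higher change was not always a rise in muscle. In ttn.1, ttn.2, postn, myom2b, asb2a.1 and LOC107384395 the muscle log2 change in this fit was between -0.81 and -0.05. The brain change of these hosts was between -5.98 and -4.08. The other hosts with a higher change had muscle changes above 0. DESeq2 called 28 higher and 13 lower, 22 of them shared with edgeR. Without library 2 of muscle at 14 weeks 7 hosts were called, 6 of them among these 29, and leaving out any other single library of the ages compared gave 14 to 45. Brain libraries differed as well: libraries 2 and 3 of brain at 3.5 weeks held 2.57% and 1.97% skeletal muscle marker reads. The other 7 brain libraries held 0.116% to 0.362%. Leaving out libraries 2 and 3 keeps a single young brain library, so only effect sizes are given for that fit. For ntrk3 and thsd7a the brain counts were 222 to 416 and 69 to 140 at all ages. Their difference in log2 change was 5.27 and 7.71 without libraries 2 and 3 of young brain. Young muscle held 0 and 1 reads of ntrk3 and 0 and 0 of thsd7a. The size of both differences therefore rests on few reads and, for thsd7a, on the prior count.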

How the data were processed

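Total RNA, depleted of ribosomal RNA with a kit made for mammals, was sequenced, per the labels' protocols, on an Illumina HiSeq as stranded paired-end libraries. The tool list in the submitters' processing notes names STAR 2.5.2b. Not given in the sources used here are the circRNA caller, annotation, genome build and how linear reads were counted. The authors deposited raw counts of circular and of linear reads for 1810 circRNAs, and these counts were used as deposited. The authors' p-value tables were not used.

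Of 1262 hosts, 705 were named in the files, 336 from a RefSeq table of assembly NfurGRZ-RIMD1 and 221 kept their identifier; 159 circRNAs had no host and did not enter host sums. Whether 1 read could count at several positions of a host is not stated.

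Features with 10 or more reads over the 6 muscle libraries were tested with edgeR 4.0.16 (R 4.3.3), and DESeq2 1.42.0 as an alternative, all 3 ages sharing 1 estimate of the spread. Circular tests used TMM-scaled linear library sizes. The SE is the log2 change divided by the square root of F. Of the circRNAs tested, 3 had no read in the 4 libraries compared. Scripts were tested on simulated data. No pair of replicates agreed within counting error.

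Named features are the most read, those with the smallest p or the largest called change, those of highest share and the most read of each list. Gene lists (17), 16 of them with a host in the table (cell cycle had none), and 11 marker lists, 4 with a host, were used; no marker of heart, glia, blood, immune cells, adipocytes, skin or satellite cells was a host. The comparison and the lists were chosen with earlier results of these data known. Alternatives were other filters, scalings, tools, host summaries and leaving out each library. Some features that the naming rule covers are not reported here.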

Additional observations from a re-analysis of the deposited data

Results flagged for a closer look

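For 18 hosts named here, the change in linear reads from 3.5 to 14 weeks differed between muscle and brain in the interaction test (edgeR, adjusted p under 0.05). Some of these calls depended on the setting. Lost calls were counted for some of the hosts, over settings that include the fit without libraries 2 and 3 of young brain. No such count was made for the other hosts. Of up to 13 alternative settings each, the call was lost in 10 for LOC107390721, 8 for spint2 and 7 each for ogdh and asb2a.1. It was lost in 5 for LOC107388490, 4 for LOC107378159, 1 each for mybpc2b and ntrk3, and none for atp2a1 and thsd7a. Without library 2 of muscle at 14 weeks, 6 of all 29 hosts called kept the call. Values below are log2 differences, muscle change minus brain change. Of hosts changed in muscle, the difference was 7.77 for thsd7a, 5.06 for ntrk3, 3.09 for LOC107384050, 2.17 for nisch, 2.08 for lamp2, 1.68 for cox4i2, 1.60 for ank2a and -1.82 for ass1. In each of these 8, the brain change alone was between -0.30 and 0.17. The difference was 7.51 for LOC107378159, 7.11 for LOC107388490 and 6.72 for LOC107390721. These hosts had 115 or more reads in every brain library, none in young muscle and 4 to 8 reads in each old muscle library. With no read in young muscle, the size of these differences, and of that of thsd7a, depends on the prior count. Leaving out libraries 2 and 3 of young brain keeps a single young brain library, so apart from the counts above only effect sizes are given for that fit. The difference was then 7.71 for thsd7a, 5.27 for ntrk3, 3.16 for LOC107384050 and 1.81 for nisch. It was 1.59 for lamp2, 1.29 for cox4i2, 1.77 for ank2a and -1.88 for ass1. For LOC107378159, LOC107388490 and LOC107390721 it was 7.44, 7.10 and 6.38.

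The difference was 6.62 for atp2a1, 5.16 for mybpc2b, 3.71 for ttn.1, 4.44 for LOC107384395, 5.81 for asb2a.1, 7 for ogdh and 6.25 for spint2. In these 7 the brain change alone was between -6.12 and -2.89. For asb2a.1 and ogdh, brain at 14 weeks had no read, so the size of this change depends on the prior count. In brain, atp2a1 had 71, 231 and 678 reads at 3.5 weeks against 6, 3 and 6 at 14 weeks, and it stands with skeletal muscle markers at 2.57% and 1.97% of host reads in libraries 2 and 3 of young brain. Without those libraries, with a single young brain library left, the difference was 4.28 for atp2a1, 2.32 for mybpc2b and 0.79 for ttn.1. It was 1.25 for LOC107384395, 3.31 for asb2a.1, 4.29 for ogdh and 4.51 for spint2. The young brain library left held 0.362% skeletal muscle marker reads, where the brain libraries of 8.5 and 14 weeks held up to 0.270%. The part of muscle tissue in these brain libraries was not tested.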

How the results depend on the processing

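No paired analysis was possible because the libraries of 14 and 3.5 weeks share only the replicate number 1. The difference in total circular share stayed above 0 in every alternative, from 0.465 (without library 2 of 14 weeks) to 1.10 points, and that in detected circRNAs from 21.9 to 174. circRNAs called higher in circular abundance numbered 2 without a filter, with DESeq2 and with TMM of the circular counts, 4 with linear totals, 0 with the filter over the 4 libraries or a fit of them alone, and 0 to 3 on leaving out a library, when 0 to 1 were lower. Circular shares called numbered 3 at a minimum of 30 reads, 1 with the filter over the 4 libraries, 2 summed per host and 18 with the beta-binomial test. Hosts called higher numbered 28 and lower 7 with linear totals, and higher 18 without the 10 leading positions; leaving out a library gave 5 to 12 higher and 11 to 20 lower. On leaving out a brain library, interaction calls ranged from 0 to 1 for circRNAs and from 14 to 45 for hosts. They numbered 41 for hosts with DESeq2. The fit without brain libraries 2 and 3 of 3.5 weeks, which keeps a single young brain library, was chosen after seeing the data. So were those without the LOC107389481 position (12 higher, 19 lower). Of the 28 hosts called, 21 lost the call in some setting, all 11 higher ones among them. Among single named features, 121 of their values lost a call, 39 gained one and 80, none of them called, changed sign. The causes were not tested. Of the 292 circRNAs tested, 139 had under 10 reads in the 4 libraries, and how far depth limited the circular tests was not tested.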
